A study of Homo sapiens with 6 samples.

Results

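The clustered protocadherins are cadherin-like adhesion proteins encoded by neighbouring genes in the alpha, beta and gamma clusters. In the alpha and gamma clusters each variable exon has its own promoter and is spliced to constant exons shared by the whole cluster, while each beta gene is a gene with a single coding exon. CTCF and cohesin bring distal enhancers to the promoters that are used, and DNA methylation marks promoters that are not. The family is best known from neurons, where combinations of isoforms give cells a surface identity and support self-avoidance of their processes.

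The members were selected on symbol and on measured values. Rows of the gene table whose symbol starts with PCDHA, PCDHB or PCDHG, followed by a digit or by A, B or C and a digit, were taken, and rows with no read in any library were dropped. Of 57905 genes in the table, 57 carried such a symbol and 45 of them had at least 1 read. The 45 members comprised 5 of 16 alpha rows, 18 of 19 beta rows, all 12 gamma A rows, all 7 gamma B rows and all 3 gamma C rows. Just inside this limit stood 7 members with 1 read in all libraries together, and just outside it stood 12 rows with 0 reads. All 57 rows lie on the plus strand of chromosome 5, between positions 140165876 and 140892546 of GRCh37.

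RNA-seq was performed on HK-2 cells, an immortalized human proximal tubular line labelled wild type, 48 h after transfection with RNAiMAX. In the control siRNA group (n = 3 libraries) the cells received a non-targeting siRNA pool, and in the INO80 siRNA group (n = 3 libraries) they received a pool of siRNAs against INO80, the ATPase of a chromatin remodelling complex. Both groups were grown in the same medium. The labels do not say that the libraries of a group came from separate cultures, so p-values measure only the spread between these libraries, which may be technical. The comparison asked which genes respond to the loss of INO80. INO80 itself was at 46.3, 49.3 and 54.0 CPM under control siRNA and at 13.8, 12.05 and 14.2 CPM under INO80 siRNA, where CPM is the count scaled to the TMM-normalized library total. The log2 fold change was -1.90 (adjusted p = 0.000161, edgeR). Library totals ranged from 16829273 to 20311588 reads under control siRNA and from 20678008 to 23784599 reads under INO80 siRNA. A count of 0 allows up to 3 reads, which is 0.124 to 0.183 CPM in a single library, and such limits cover counting error only.

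Markers of the labelled cell type were found in part. PAX8, a kidney lineage factor, averaged 301 CPM under control siRNA, and the keratin gene KRT8 averaged 443 CPM. HNF4A and the organic anion transporters SLC22A6 and SLC22A8, which mark differentiated proximal tubule, had no read in any library. Of 15 proximal tubule markers, 12 had a read and 7 were tested. None had an adjusted p under 0.05 with treatment alone (edgeR), against 1.75% of all genes tested. With the replicate number as a block, 2 were lower and 1 higher at that threshold (edgeR), against 24.8% of all genes. With treatment alone, 1 had an unadjusted p under 0.05 (edgeR), against 16.4%. That gene, ALPL, a brush border phosphatase, averaged 1.84 and 0.347 CPM (log2 fold change -2.36, adjusted p = 0.140 and, with the block, 2.03e-05, edgeR). It was singled out after its values were seen. Replicate 1 had the highest summed beta level in both groups, as given below with the values.

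Promoter windows were read to show what the members share in sequence. RefSeq windows of 300 bases (GRCh38.p14, 250 bases before and 50 after the annotated start site) matched 46 of the 57 rows and 37 of the 45 members, in 50 windows. The letters CGCT, the core of the conserved element of protocadherin promoters, were searched on both strands, as were the longer CGCTGT and GTGGCGCTG, which both contain CGCT. These letters were chosen after the windows had been read. The stretches below are those of the members with enough reads for a test and, for contrast, of C-type and alpha genes with few or no reads. Capitals mark the matched letters, which need not be the conserved element in every promoter. All stretches are on the plus strand of GRCh38.p14.
PCDHGC3 (chr5:141475866-141475931): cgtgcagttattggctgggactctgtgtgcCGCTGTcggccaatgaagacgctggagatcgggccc
PCDHGA7 (chr5:141382635-141382700): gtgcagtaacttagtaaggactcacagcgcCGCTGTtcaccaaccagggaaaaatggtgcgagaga
PCDHGB2 (chr5:141359907-141359972): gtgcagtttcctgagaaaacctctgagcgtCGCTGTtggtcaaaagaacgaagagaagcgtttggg
PCDHGC4 (chr5:141484938-141485003): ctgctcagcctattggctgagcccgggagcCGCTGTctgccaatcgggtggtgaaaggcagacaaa
PCDHB13 (chr5:141213847-141213915): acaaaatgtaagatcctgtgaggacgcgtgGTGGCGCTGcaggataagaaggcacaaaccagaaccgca
PCDHB3 (chr5:141100375-141100443): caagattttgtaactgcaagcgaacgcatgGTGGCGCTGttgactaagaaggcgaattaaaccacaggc
PCDHB2 (chr5:141094526-141094594): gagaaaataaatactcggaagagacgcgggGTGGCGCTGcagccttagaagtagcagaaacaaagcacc
PCDHB14 (chr5:141223249-141223312): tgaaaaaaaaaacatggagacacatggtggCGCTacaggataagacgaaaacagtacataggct
PCDHAC2 (chr5:140966351-140966416): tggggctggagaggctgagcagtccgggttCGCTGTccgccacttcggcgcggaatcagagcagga
PCDHA8 (chr5:140841116-140841181): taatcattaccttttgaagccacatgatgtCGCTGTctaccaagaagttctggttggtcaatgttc

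CGCT was in 49 of the 50 member windows (98.0%), against 70.0% of all 35116 windows in the table. The longer CGCTGT was in 19 of 23 gamma windows (82.6%), in 7 of 13 alpha windows (53.8%) and in 1 of 14 beta windows (7.14%), against 11.2% of all windows. The form GTGGCGCTG was in 12 of 14 beta windows (85.7%) and in no alpha or gamma window, against 0.572% of all windows. So the gamma and beta promoters held different extensions of the same core, as the stretches of PCDHGC3 and PCDHB13 show. CGCT was in the windows of 7 of 7 tested members and in those of 8 of 9 rows without a read. A match is a description of these letters and not of a complete conserved element or a bound site.

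The matched letters lay close to the start site in most windows. On the plus strand, their median distance before the start was 55 bases in alpha windows, 64.5 bases in beta windows and 46 bases in gamma A windows. In gamma B windows the median was 81 bases, and 4 windows held a match between 199 and 239 bases before the start. Apart from that of PCDHGB2, these were second windows of PCDHGB1, PCDHGB4 and PCDHGB6, whose other windows had a match at 58, 65 and 81 bases. For PCDHGB1 the same letters were matched again, and for PCDHGB4 and PCDHGB6 another CGCT was. The gamma B median therefore counts some genes more than once. The windows also varied in base composition, from 32.3% to 66.0% G and C. The PCDHGC3 window had 59.0% G and C with 18 CpG pairs, while that of PCDHGA7 had 41.0% with 6 CpG pairs. PCDHAC1, with no read in any library, had the highest values, 66.0% G and C and 27 CpG pairs.

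**Figure D1:**
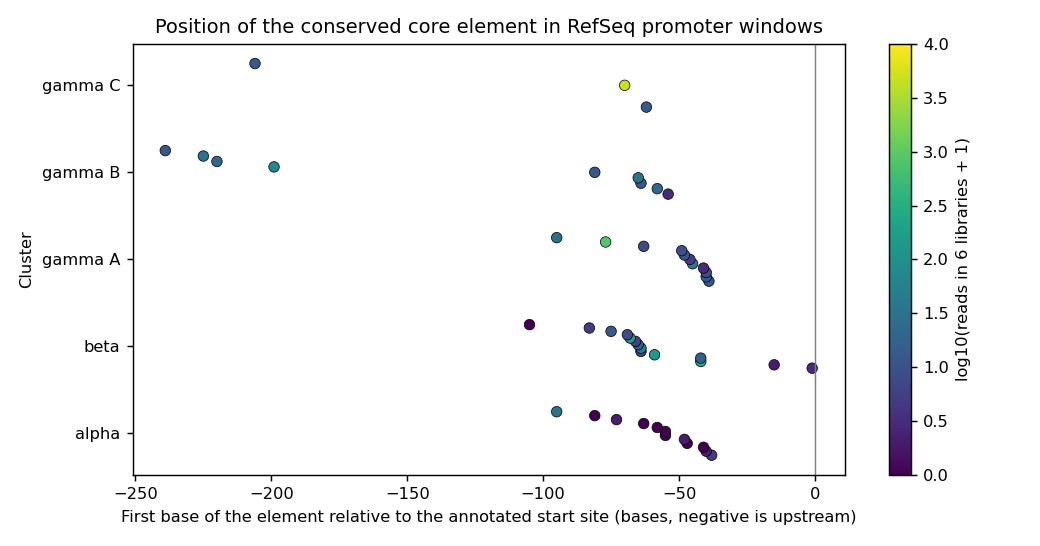
Position of the matched letters in the RefSeq promoter windows of clustered protocadherin genes. The horizontal axis gives the first base of the match relative to the annotated start site. Each point is 1 window, so genes with more than 1 window appear more than once. Rows are clusters, and colour gives log10 of the reads in all 6 libraries plus 1. Most points lie within about 100 bases before the start site in rows with and without reads.

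Few protocadherin genes carried most of the reads. In all, 6644 reads fell on the 45 members in the 6 libraries. PCDHGC3 held 70.2% of them, PCDHGA7 12.8%, PCDHB13 4.44%, PCDHB3 2.90% and PCDHB2 2.18%. The gamma C genes together held 70.9%, gamma A 14.7%, beta 11.6%, gamma B 2.18% and alpha 0.572%. The median member had 9 reads in all libraries together, and 24 members had 10 reads or fewer. Of the 45 members, 13 had a read in every library and 10 had reads in 1 library only.

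In each cluster a single gene or a small group dominated. PCDHGC3 held 99.1% of the gamma C reads and PCDHGA7 87.1% of the gamma A reads. In the beta cluster PCDHB13, PCDHB3, PCDHB2 and PCDHB14 held 38.2%, 24.97%, 18.8% and 7.37%. These were the beta genes with the clearest reads, while PCDHB1 had none. PCDHGB2 held 46.9% of the gamma B reads and PCDHGB4 22.1%. In the alpha cluster 31 of 38 reads fell on PCDHAC2, a C-type gene next to the constant exons, and 11 alpha rows had no read.

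Levels of different genes are compared as FPKM, the reads per exonic length and library total. The mean FPKM under control siRNA was 8.91 ± 0.768 (SD, n = 3) for PCDHGC3, 1.47 ± 0.194 for PCDHGA7 and 0.713 ± 0.115 for PCDHB13. Below them stood PCDHB3 at 0.540 ± 0.202, PCDHB2 at 0.340 ± 0.200, PCDHB14 at 0.147 ± 0.031, PCDHGB2 at 0.120 ± 0.056 and PCDHGC5 at 0.107 ± 0.047 FPKM. PCDHGC3 was above PCDHGA7, and PCDHGA7 above PCDHB13, in every control library. From PCDHB13 downwards, the ranges of neighbours in this order overlapped over the control libraries, although PCDHB13 was above PCDHB3 and PCDHB3 above PCDHB2 within each of the 3 libraries. Reads were also divided by the exon bases of GENCODE v44 that a gene shares with no other gene on its strand. By these control means, PCDHGC3 (12.9) and PCDHGA7 (2.07) kept the first places, and PCDHB3 (0.509) and PCDHB13 (0.491) changed places. PCDHB14 (0.101) then stood below PCDHGB2 (0.207), PCDHGC5 (0.172) and PCDHGB4 (0.133), so the FPKM order of these genes was not kept.

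**Figure D2:**
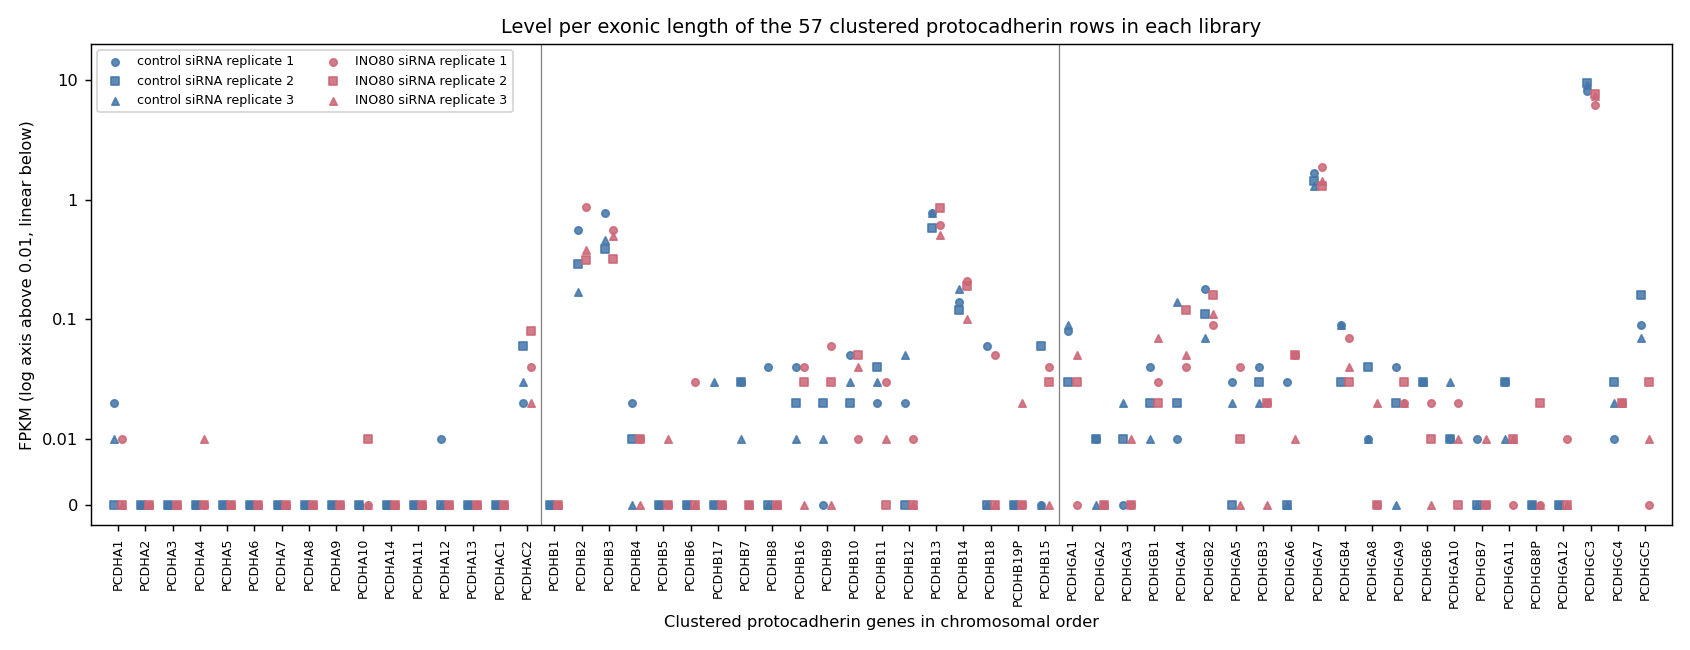
FPKM of the 57 clustered protocadherin rows in chromosomal order. The vertical axis is logarithmic above 0.01 FPKM and linear below, blue marks are control siRNA, red marks are INO80 siRNA, symbols are replicates, and vertical lines divide the alpha, beta and gamma clusters. PCDHGC3 lies near 10 FPKM and PCDHGA7 above 1 FPKM in both groups, and most alpha rows lie at 0.

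The reads of a gene depend on how shared exons were counted. In GENCODE v44 most gamma genes share 2177 exon bases with other members and most alpha genes 2869 bases, so reads from the constant exons cannot be assigned to a single promoter. PCDHGC4 was counted with 12 reads while PCDHGC3 was counted with 4665, so reads of the shared exons were not counted on every gene. The beta genes share no exon with each other. Of their 100-base transcript words a median of 5.66% also occurred in another member, with the highest share, 25.3%, in PCDHB8, which had 2 reads. For PCDHB13, with 295 reads, the share was 15.1%, and reads from such stretches are uncertain in their gene. In the deposited table PCDHB3 overlaps the antisense gene AC005754.7. In GENCODE v44, 1797 of 4098 exon bases of PCDHB2 and 393 of 3355 of PCDHB3 lie over exons of genes on the opposite strand, and the strand setting of the count is not given in the sources used here.

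No clustered protocadherin passed the test between INO80 siRNA and control siRNA with treatment alone, and PCDHGC3 came closest. Of the 45 members, 7 passed the filter on low counts: PCDHB2, PCDHB3, PCDHB13, PCDHB14, PCDHGA7, PCDHGB2 and PCDHGC3. None of the 7 had an adjusted p under 0.05 with edgeR's quasi-likelihood test, against 268 of 15343 genes tested (1.75%). At an unadjusted p under 0.05 there was 1 of the 7, PCDHGC3, against 16.4% of all genes tested. With the replicate number as a block there was also 1 of the 7, PCDHGC3, against 24.8%. The CPM values of the groups did not overlap for 1 of the 7, again PCDHGC3, against 22.8%. The median log2 fold change was 0.03 over the 7 members and 0.01 over all genes tested.

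PCDHGC3 (ENSG00000240184, chr5:140855580-140892542, GRCh37) encodes a C-type gamma protocadherin that is expressed in many tissues. Replicates 1, 2 and 3 of control siRNA had 38.9, 44.6 and 42.9 CPM, and those of INO80 siRNA had 29.8, 35.6 and 34.2 CPM. All INO80 siRNA libraries were below all control libraries, and replicate 1 was the lowest of both groups. The means were 42.1 ± 2.92 and 33.2 ± 3.01 CPM (SD, n = 3), a log2 fold change of -0.34 (SE, the standard error, 0.0901, adjusted p = 0.106, edgeR). An exact two-sided permutation test gave p = 0.1, the smallest possible with 3 libraries against 3.

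The call on PCDHGC3 depended on the model. With the replicate block, the adjusted p was 6.17e-05 (edgeR), and the log2 fold change was again -0.34. Without a filter on low counts the adjusted p was 0.0431 (edgeR, 2.43% of all genes called), and with DESeq2 it was 0.0461 (4.93% called). Without both libraries of replicate 1, an alternative chosen after the data were seen, the log2 fold change was -0.33 with an adjusted p of 0.0485 (edgeR, 3.37% called). With the block added to that fit, the adjusted p was 3.38e-06 (edgeR, 25.4% called). With 1 library left out in turn and no block, it lay between 0.110 and 0.316 (edgeR), and the log2 fold change between -0.40 and -0.27.

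**Figure D3:**
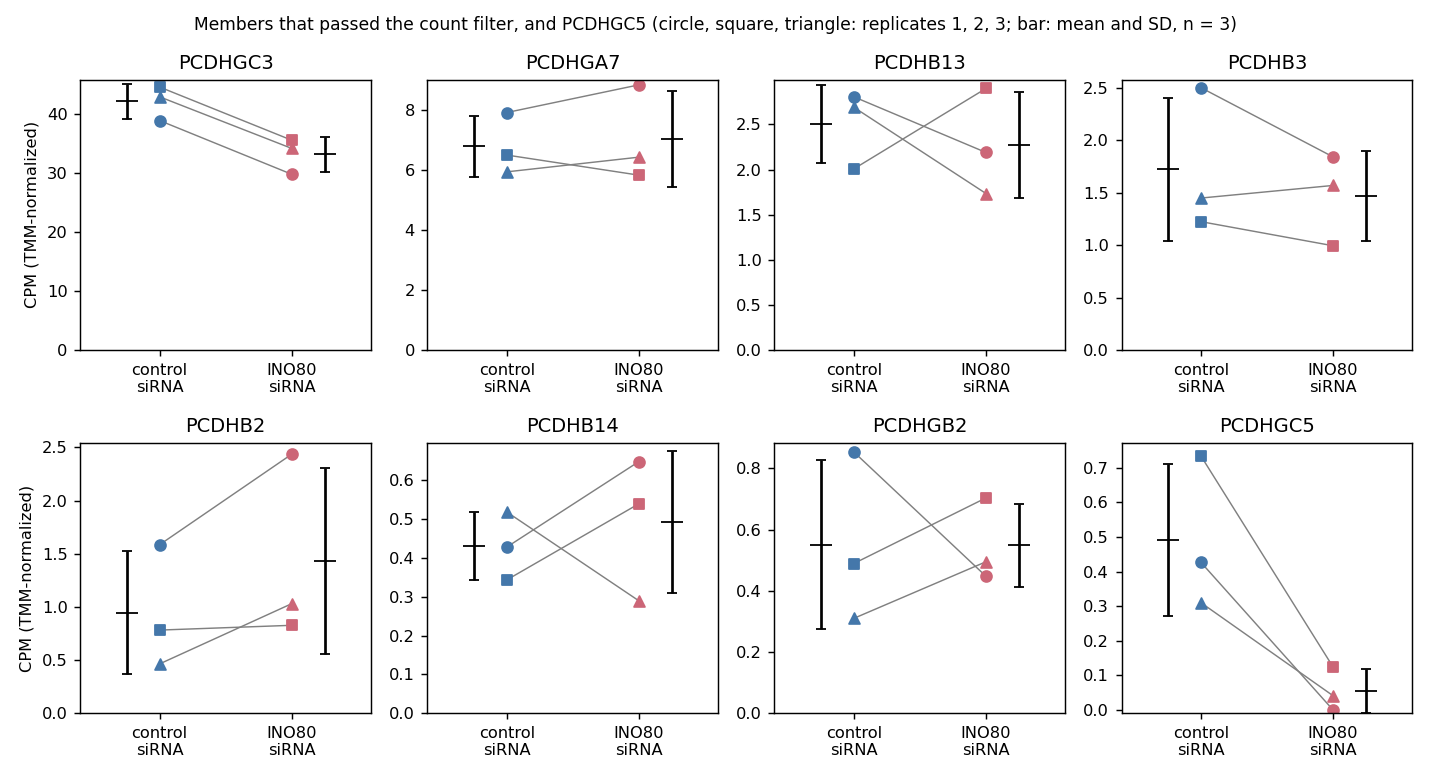
CPM of the 7 members that passed the count filter and of PCDHGC5. Each panel has control siRNA on the left and INO80 siRNA on the right, lines join libraries with the same replicate number, and black bars are mean and SD (n = 3). PCDHGC3 and PCDHGC5 are lower under INO80 siRNA in 3 of 3 pairs without overlap, and the other panels overlap.

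PCDHGC5 (ENSG00000240764) is the last variable gene of the gamma cluster. It had 7, 15 and 6 reads in control siRNA replicates 1, 2 and 3 and 0, 3 and 1 reads in INO80 siRNA replicates 1, 2 and 3. The groups did not overlap, and the exact two-sided permutation test on CPM gave p = 0.1. The summed reads were 28 and 4, and the ratio of INO80 siRNA to control siRNA after scaling was 0.117 (exact 95% interval 0.0299 to 0.335, for counting error only). The gene was under the count filter, so the main test does not cover it. Without the filter, its log2 fold change was -2.96 (SE 0.805, adjusted p = 0.0232, edgeR), and 2 of 45 members were then called, PCDHGC3 and PCDHGC5, against 2.43% of all genes in that fit. With the block added, chosen after the data were seen, the adjusted p was 0.00799 (edgeR). The call with neither filter nor block was lost without control replicate 2 (adjusted p = 0.278), INO80 replicate 1 (0.256) or INO80 replicate 3 (0.0957) in edgeR. The fit with the block was not repeated with a library left out.

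PCDHGC4, between these genes on the chromosome, had 1, 3 and 2 reads under control siRNA and 2 reads in each INO80 siRNA library. The ratio after scaling was 0.820 (exact 95% interval 0.219 to 3.07), so a difference was not detectable at this depth.

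PCDHGA7 (ENSG00000253537), an A-type gamma gene, was at 7.93, 6.51 and 5.95 CPM in control siRNA replicates 1, 2 and 3. Under INO80 siRNA it was at 8.85, 5.84 and 6.44 CPM. Replicate 1 was the highest in both groups, and the groups overlapped. The log2 fold change was 0.05 (SE 0.193, adjusted p = 0.931, edgeR). PCDHGA7 was the member with the most reads after PCDHGC3, and the sign of its difference turned when control replicate 3 or INO80 replicate 1 was left out.

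Of the other gamma A genes, PCDHGA4 had 1, 2 and 12 reads under control siRNA and 4, 13 and 5 under INO80 siRNA. Most of its control reads came from replicate 3. PCDHGA1, at the start of the cluster, had 6, 3 and 8 reads against 0, 3 and 5, a ratio of 0.386 after scaling (exact 95% interval 0.144 to 0.944, and adjusted p = 0.619 in edgeR without a filter). In the gamma B genes, PCDHGB2 was at 0.854, 0.489 and 0.310 CPM against 0.448, 0.704 and 0.495 CPM (log2 fold change 0.03, SE 0.436, adjusted p = 0.986, edgeR). PCDHGB4 had 7, 3 and 8 reads against 7, 3 and 4, and PCDHGB1 had 3, 2 and 1 against 3, 2 and 8. The groups overlapped for each of these genes, while the CPM of PCDHGA1 and PCDHGB4 was lower under INO80 siRNA in 3 of 3 pairs. Their reads were equal in replicate 2, and those of PCDHGB4 also in replicate 1, so only the scaling to library totals set these pairs apart.

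The 4 tested beta genes overlapped between groups. PCDHB13 (ENSG00000187372) was at 2.81, 2.01 and 2.69 CPM in control siRNA replicates 1, 2 and 3 and at 2.19, 2.90 and 1.73 CPM under INO80 siRNA (log2 fold change -0.13, SE 0.255, adjusted p = 0.852, edgeR). PCDHB3 (ENSG00000113205) was at 2.50, 1.22 and 1.45 CPM against 1.84, 0.994 and 1.57 CPM (log2 fold change -0.22, SE 0.354, adjusted p = 0.811, edgeR). Replicate 1 was the highest library for PCDHB3 in both groups. PCDHB2 (ENSG00000112852) was at 1.59, 0.783 and 0.466 CPM against 2.44, 0.828 and 1.03 CPM (log2 fold change 0.60, SE 0.539, adjusted p = 0.643, edgeR). It was higher under INO80 siRNA in 3 of 3 pairs, with an adjusted p of 0.195 under the replicate block (edgeR). Its log2 fold change was 0.01 without INO80 replicate 1 and 1.16 without control replicate 1. PCDHB14 (ENSG00000120327) was at 0.427, 0.343 and 0.517 CPM against 0.647, 0.538 and 0.289 CPM (log2 fold change 0.18, SE 0.425, adjusted p = 0.882, edgeR).

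The 38 members under the filter had between 1 and 37 reads in all libraries together, and differences in most of them were not detectable at this depth. Their CPM values did not overlap between groups for 5 of 38, all lower under INO80 siRNA: PCDHB7, PCDHGB3, PCDHGB6, PCDHGA11 and PCDHGC5. The share was 22.8% of the genes tested, in either direction. That share covers only genes that passed the filter, so it is not a like background for these 38. For PCDHGB3, PCDHGB6 and PCDHGA11 the read counts themselves met between groups, and only the scaling to library totals, which were larger under INO80 siRNA, set the values apart. Of the genes named for small counts, PCDHB7, PCDHGB3, PCDHGB6, PCDHGA11, PCDHGA6, PCDHB8 and PCDHAC1 were singled out after their values were seen. PCDHB7 had 2, 2 and 1 reads under control siRNA and none under INO80 siRNA. Against a floor of 3 reads over the INO80 siRNA group it was 2.03-fold lower, a value that leaves out the counting error of the control reads. Without a filter its adjusted p was 0.423 (edgeR). In the opposite direction, PCDHGA6 had 2, 0 and 0 reads against 5, 5 and 1, a ratio of 4.51 after scaling (exact 95% interval 0.984 to 41.9), higher in 3 of 3 pairs. In the alpha cluster, PCDHAC2 had 2, 7 and 3 reads against 5, 11 and 3, a ratio of 1.30 (exact 95% interval 0.598 to 2.93). PCDHA1 had 2, 0 and 1 reads against 1, 0 and 0, and PCDHA4, PCDHA10 and PCDHA12 had 1 read each, of which that of PCDHA12 came from a control library.

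Sums over each cluster were taken as descriptions without a test. The gamma C sum reached 39.4, 45.5 and 43.3 CPM under control siRNA and 29.9, 35.8 and 34.3 CPM under INO80 siRNA, a log2 ratio of -0.36. The gamma A sum was 7.94 ± 0.994 and 7.95 ± 1.56 CPM (SD, n = 3), and the gamma B sum was 1.30 ± 0.461 and 1.08 ± 0.056 CPM. The beta sum was 8.29, 5.04 and 5.74 CPM against 8.16, 5.84 and 4.87 CPM. Replicate 1 was the highest in the beta sum in both groups, and the groups overlapped for beta, gamma A and gamma B. The alpha sum was 0.285 ± 0.070 and 0.320 ± 0.167 CPM and also overlapped.

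Over all 45 members the sum was 58.9, 59.2 and 57.8 CPM under control siRNA and 49.2, 50.1 and 47.6 CPM under INO80 siRNA, a log2 ratio of -0.26. The groups did not overlap. Without PCDHGC3 the log2 ratio was -0.06 and the groups overlapped. The 38 members under the count filter summed to 3.90, 3.23 and 3.47 CPM against 3.03, 2.73 and 1.82 CPM, a log2 ratio of -0.48 without overlap. Their reads were 64, 66 and 67 against 61, 66 and 44, so the groups met before scaling to library totals. PCDHGC5 contributed 28 of their 197 control reads and 4 of their 171 INO80 siRNA reads. In these bulk samples, fewer cells using a promoter and less RNA per cell cannot be told apart.

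**Figure D4:**
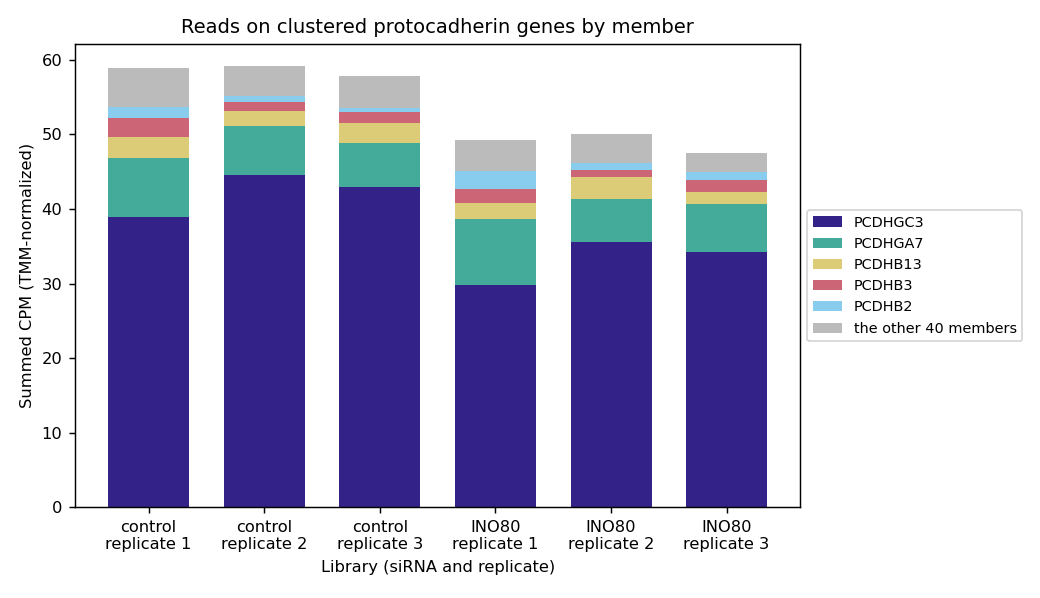
Summed CPM of the 45 clustered protocadherin members in each library, stacked by member. Bars start at 0, each bar is 1 library, and grey is the sum of the other 40 members. The 3 control siRNA bars reach 57.8 to 59.2 CPM and the 3 INO80 siRNA bars 47.6 to 50.1 CPM, and the PCDHGC3 segment is the largest in all 6.

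The share of PCDHGC3 among the members' reads was lowest in replicate 1 of both groups. It was 66.0%, 75.4% and 74.3% in control siRNA replicates 1, 2 and 3 and 60.5%, 71.0% and 71.9% under INO80 siRNA. The lowest, in INO80 siRNA replicate 1, had an exact 95% interval of 57.4% to 63.6%, and the highest, in control replicate 2, had one of 72.8% to 77.8%. Within each replicate number the share was lower under INO80 siRNA, while the groups overlapped.

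Genes known to control or process the protocadherins were counted from lists, which were chosen with earlier results of these data known. Of 26 tested regulators, none had an adjusted p under 0.05 with treatment alone (edgeR), 7 had an unadjusted p under 0.05 (16.4% of all genes tested did), and the replicate block called 9 lower and 4 higher (24.8% of all genes in either direction). In the list of CTCF and cohesin genes, 11 were tested, and the block called 6 lower and 1 higher, against the same 24.8%. In the list of silencing and DNA methylation genes, 15 were tested, and the block called 3 lower and 3 higher, again against 24.8%.

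CTCF, which binds the protocadherin promoters and enhancers, was at 74.0, 78.3 and 82.2 CPM in control siRNA replicates 1, 2 and 3 and at 77.7, 81.0 and 82.4 CPM under INO80 siRNA (log2 fold change 0.04, adjusted p = 0.805, edgeR). RAD21, a cohesin subunit, had a log2 fold change of 0.00 (adjusted p = 0.988, edgeR). NIPBL, which loads cohesin, was at 95.2, 92.7 and 95.6 CPM against 79.5, 87.2 and 75.0 CPM without overlap. Its log2 fold change was -0.23 with an adjusted p of 0.141, and of 0.000739 with the block (edgeR). SMC3 had a log2 fold change of 0.11, with an adjusted p of 0.442, and of 0.0311 with the block (edgeR). WAPAL, which releases cohesin from DNA, and MAU2, the partner of NIPBL, were singled out after their values were seen. WAPAL averaged 144 and 119 CPM (log2 fold change -0.27, adjusted p = 0.0530 and, with the block, 1.29e-05, edgeR), and MAU2 38.8 and 30.9 CPM (log2 fold change -0.33, adjusted p = 0.128 and, with the block, 0.000187, edgeR).

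Of the silencing genes, SMCHD1, which acts on the protocadherin clusters and the inactive X chromosome, had a log2 fold change of -0.06 (adjusted p = 0.743, edgeR). DNMT3B, a DNA methyltransferase that acts on their promoters, had one of -0.13 (adjusted p = 0.561 and, with the block, 0.0387, edgeR).

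**Figure D5:**
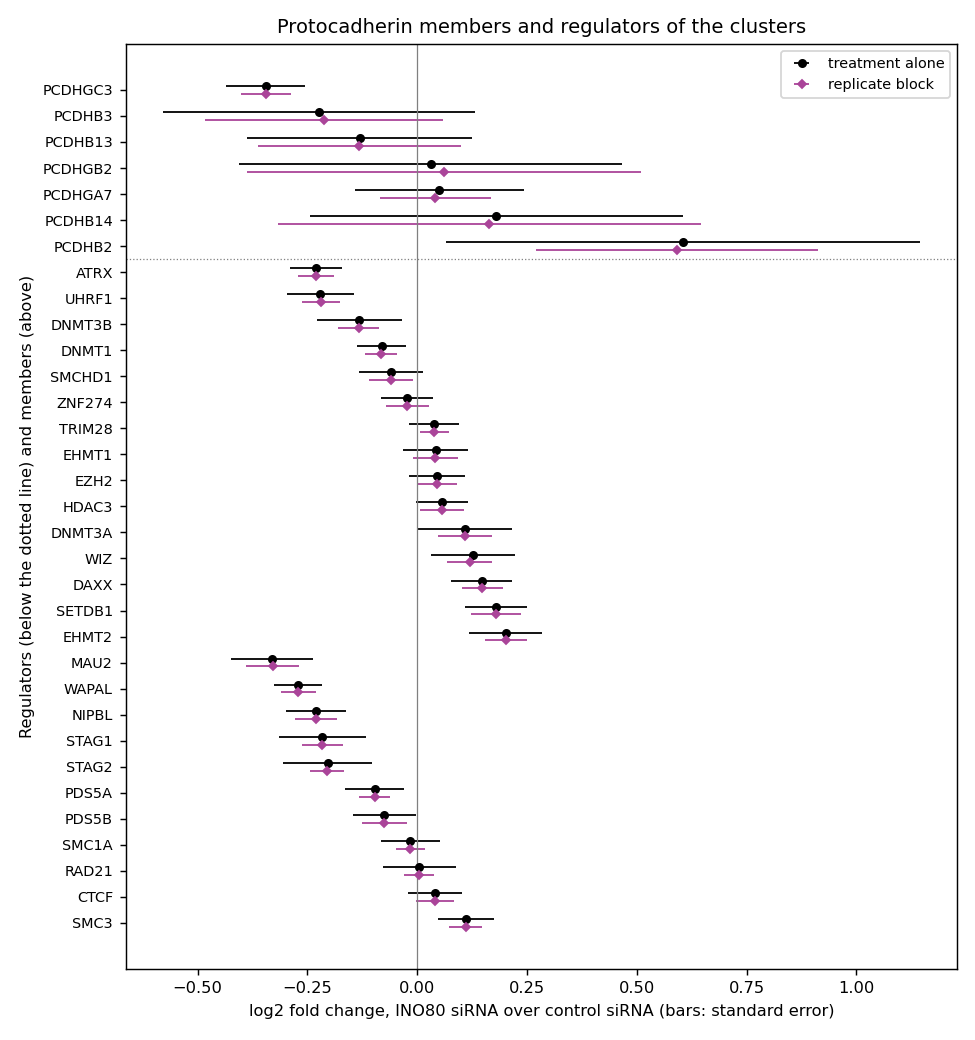
Log2 fold change of INO80 siRNA over control siRNA for the 7 tested members, above the dotted line, and the 26 tested regulators, below it. Black circles are the fit with treatment alone, purple diamonds the fit with the replicate block, and bars are SEs. PCDHGC3 lies at -0.34 in both fits with a smaller bar under the block, and the bars of the other members are wide.

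Other cadherin-related genes were read beside the clustered ones. Of 15 tested non-clustered protocadherins and large cadherins, 1 was called higher with treatment alone, against 1.75% of all genes, and the block called 3 lower and 2 higher, against 24.8%. CELSR3, a seven-pass cadherin of planar polarity, was at 65.3, 60.5 and 57.2 CPM under control siRNA and at 80.1, 77.6 and 75.0 CPM under INO80 siRNA. It rose with a log2 fold change of 0.35 (SE 0.0677, adjusted p = 0.0471, edgeR). With any 1 of the 6 libraries left out, this call was lost, with an adjusted p between 0.0529 and 0.182 (edgeR) and a log2 fold change between 0.30 and 0.40. PCDH7, a non-clustered protocadherin, was at 20.9, 18.9 and 16.5 CPM against 13.7, 11.6 and 10.9 CPM (log2 fold change -0.64, adjusted p = 0.0530 and, with the block, 3.03e-06, edgeR). Its groups did not overlap. FAT1, a giant cadherin, had a log2 fold change of -0.02 (adjusted p = 0.960, edgeR), and PCDH1 stood at 0.217 and 0.221 CPM, under the filter. Of 22 tested processing and signalling partners, such as the proteases that cleave protocadherins, and of 7 tested classical cadherins and catenins, none passed with treatment alone (edgeR). The unadjusted p was under 0.05 for 3 of the 22 and for none of the 7. With the block, 3 partners were lower and 3 higher, and 1 classical cadherin or catenin gene was lower and 1 higher. Both counts are near the 24.8% of all genes.

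Genes within 1 Mb of the clusters were read as neighbours. Of 70 such genes, 30 were tested, none was called with treatment alone (edgeR), 4 had an unadjusted p under 0.05, and the block called 3 lower and 5 higher. These counts are near the 16.4% and 24.8% of all genes. TAF7, a subunit of the general transcription factor TFIID whose gene lies between the beta and gamma clusters, was at 49.6, 54.4 and 49.3 CPM against 58.1, 57.3 and 60.8 CPM. Its log2 fold change was 0.20 with an adjusted p of 0.178, and of 0.00606 with the block (edgeR). SLC25A2, a mitochondrial carrier gene at the same place, had no read in any library.

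Markers of other cell types were summed beside these results. The 10 neuron markers summed to 49.9 to 57.6 CPM under control siRNA and 41.5 to 52.5 CPM under INO80 siRNA. Of these, STMN2, DCX and ELAVL4 were at 0 in all libraries. The 5 tested neuron markers had log2 fold changes between -0.65 and 0.58. The block called 1 of them, against 24.8% of all genes. That gene, NEFL, a neurofilament gene, averaged 21.6 and 13.7 CPM (adjusted p = 0.0809 and, with the block, 8.85e-07, edgeR). It was singled out after its values were seen. The part of the neuron markers in the result for PCDHGC3 was not tested. The 6 leukocyte markers summed to at most 1.24 CPM and the 5 endothelial markers to at most 0.414 CPM in any library, with PTPRC, CD3E and KDR at 0.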

How the data were processed

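The authors deposited 1 table with raw read counts and FPKM per gene and library, without normalization of the counts. FPKM recomputed from count, exonic length and library total lay within 0.0051 of the deposited FPKM for 347430 of 347430 values. Poly-A RNA was sequenced as 150-base read pairs with a directional kit. The submitters' processing notes name HISAT2 2.0.1, HTSeq and hg19, while the paper's methods name ELAND and hg38. The coordinates in the table are those of GRCh37.

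Members and gene lists were chosen with earlier results of these data known. Counts were fitted over the whole table in R 4.3.3 with edgeR 4.0.16 (filterByExpr, TMM, quasi-likelihood test, treatment alone), and p-values were adjusted by Benjamini-Hochberg over 15343 genes, with a threshold of 0.05. The edgeR step was tested on simulated data. Alternatives were median-ratio size factors, no filter, DESeq2 1.42.0, a replicate block, limma 3.58.1 on log2(FPKM + 0.1) and each library left out. Fits without both libraries of replicate 1, and fits of PCDHGC5 with no filter and a block or a library left out, were added after seeing the data. Same-numbered libraries of both groups deviated from their group means together across genes (correlations of 0.581, 0.365 and 0.360, against at most 0.152 for different numbers). Same-numbered libraries were therefore treated as pairs in the block, which is printed where it changes a call. No label says what a shared number stands for. The study's methods name no pairing, so the main model has no block.

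Named genes were all members that passed the filter, the 3 members with the most reads in each cluster, any member called with or without the block, INO80, and CTCF, RAD21, SMC3, NIPBL, SMCHD1, DNMT3B, PCDH1, PCDH7, FAT1, TAF7 and SLC25A2. Called genes of the lists were added, at most 3 a list. Of the listed genes, PECAM1 was not matched. The sequence reads were not analysed here. Results for some marker genes are not reported here.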

Additional observations from a re-analysis of the deposited data

How the results depend on the processing

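The number of clustered protocadherin genes called was 0 with edgeR and treatment alone, with median-ratio size factors, with limma, and between 0 and 0 with each library left out. It was 2 without a filter on low counts, 1 with DESeq2, where 3 of the members had an adjusted p, 1 with the replicate block, and 1 without replicate 1 in both groups, with or without the block. Listed genes called went from 1 of 70 to 3 of 85 without a filter, 3 of 65 with DESeq2, 26 of 70 with the replicate block and 0 of 69 with limma. With each library left out, they lay between 0 and 1. Neighbouring genes called went from 0 of 30 to 1 of 51 without a filter, 1 of 26 with DESeq2 and 8 of 30 with the block. Over all genes, the share called was 1.75% in the main fit, 2.43% without a filter, 4.93% with DESeq2 and 24.8% with the block. Without the member with the most reads, the log2 ratio of the cluster sum was -0.83 for alpha, -0.34 for gamma A, -2.05 for gamma C and -0.062 for all clusters. With each library left out, the log2 ratio lay between -0.30 and 0.48 for alpha, -0.25 and 0.22 for beta, -0.17 and 0.11 for gamma A, -0.40 and 0.07 for gamma B, -0.41 and -0.29 for gamma C, and -0.28 and -0.24 for all clusters.

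The sign turned for PCDHB3 (-0.42 to 0.13 with each library left out), which was 0.13 without control replicate 1. It turned for PCDHB13 (-0.35 to 0.03), which was 0.034 without INO80 replicate 3, and for PCDHB14 (-0.05 to 0.46), which was -0.049 without INO80 replicate 1. PCDHGB2 (-0.26 to 0.45) was -0.04 and -0.26 without control replicates 2 and 3 and -0.19 without INO80 replicate 2. PCDHGA7 (-0.14 to 0.17) was -0.04 without control replicate 3 and -0.14 without INO80 replicate 1. None of these 5 genes was called under any alternative run. PCDHGC3 was lower under every alternative run. The causes were not tested. At 1 to 37 reads a member, only large differences could be seen.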
